A study of Mus musculus with 4 samples.

Results

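The genes described here were 10 transcription factor genes that act from the primitive streak to the presomitic mesoderm, out of 51826 genes in the deposited table. They were picked by name: T (brachyury), Mixl1, Evx1, Eomes and Gsc for the streak, and Mesp1, Mesp2, Msgn1, Tbx6 and Foxc2 for the nascent and presomitic mesoderm. Expression was measured by RNA sequencing of polyadenylated RNA in mouse embryonic stem cells of a C57BL/6 background, differentiated for 3 days towards mesoderm. The compared groups were 2 wild-type libraries and 2 Stk40-/- libraries, lacking the gene for the pseudokinase STK40. Both genotypes had the same treatment, with BMP4 at 10 ng/ml for the first 2 days followed on the last day by CHIR99021 (1 uM, with DMSO at 0.5%), which blocks GSK3 and so turns on Wnt signalling. The labels do not say how the deletion was made or how many lines or cultures stand behind each genotype. The spread between libraries, which is all that the p-values measure, may therefore be technical. The stem cells had been kept on feeder fibroblasts, which 1 passage on gelatin was meant to remove. In a bulk sample, fewer cells that express a gene and less RNA per cell cannot be told apart.

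When the embryo gastrulates, epiblast cells enter the primitive streak and leave it as mesoderm or endoderm. Wnt, Nodal and BMP signals switch on T, Mixl1, Eomes and Evx1 in the streak, with Gsc at its anterior end. Mesp1 and Mesp2 mark mesoderm as it leaves, and T together with Wnt signalling supports Msgn1 and Tbx6 in the presomitic tissue from which the somites form. T, Eomes and Tbx6 are T-box factors, Mesp1, Mesp2 and Msgn1 are basic helix-loop-helix factors, Mixl1, Evx1 and Gsc are homeodomain factors, and Foxc2 is a forkhead factor.

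The libraries were first checked against their labels. Stk40 was at 28.9 and 39.9 TPM (an abundance scaled for transcript length and library total) in wild-type libraries 1 and 2, and at 3.54 and 3.17 TPM in Stk40-/- libraries 1 and 2. Even this gap did not pass the test over all genes described below (log2 difference -3.01, SE 0.21, limma adjusted p = 0.139). Jun, the gene for the c-JUN protein that the study's title names, ranged from 21.1 to 26.0 TPM in wild type and from 18.8 to 21.8 TPM in Stk40-/- cells. Of 7 mesoderm markers, Mesp1, Kdr and Pdgfra were under 1 TPM in every library. T was by far the highest of the 7, Mixl1 and Msgn1 exceeded 5 TPM in both wild-type libraries, and Tbx6 exceeded 1 TPM in wild-type library 1 only. Marker lists of other cell types were read against all 15739 genes with a mean of 1 TPM or more, of which 16.6% were lower and 27.5% higher in both Stk40-/- libraries than in both wild-type libraries. The 6 pluripotency markers summed to 522 and 657 TPM in wild type against 636 and 685 TPM. Of these, Nanog (113 and 132 TPM against 219 and 166 TPM) and Klf4 were higher in both Stk40-/- libraries, Zfp42 was lower in both, and Pou5f1, Sox2 and Esrrb overlapped. Summed levels of trophoblast markers, 8 genes of which Krt8 makes up most, were 757 and 515 TPM in wild type against 437 and 385 TPM. Of its 6 tested genes 4 were lower in both Stk40-/- libraries, namely Krt8, Esx1, Ascl2 (3.92 and 3.94 TPM against 1.26 and 0.835 TPM) and Cdx2 (11.1 and 9.03 TPM against 1.46 and 0.904 TPM), a factor also of the posterior streak. Elf5 was under 1 TPM throughout. The 9 feeder fibroblast markers summed to 22.2 and 33.3 TPM in wild type against 21.4 and 18.8 TPM, and 3 of the 5 tested were lower in both Stk40-/- libraries. The 6 definitive endoderm markers summed to 10.52 and 10.50 TPM in wild type against 6.87 and 6.80 TPM, with Sox17 and Cer1 under 1 TPM. Of the 3 tested, only Hhex, the highest of them, was lower in both Stk40-/- libraries (6.3 and 5.7 TPM against 3.6 and 4.4 TPM). Foxa2 and Cxcr4 overlapped. Extraembryonic endoderm markers, 6 genes, summed to 7.27 and 9.96 TPM in wild type against 6.71 and 8.83 TPM, with Ttr and Apoa1 listed at 0 in all libraries. Neural markers, 6 genes, summed to 72.5 and 80.1 TPM in wild type against 84.4 and 118 TPM, with 3 of the 4 tested higher in both Stk40-/- libraries. The part of these other cell types in the results below was not tested.

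Promoter sequences are shown for T, Evx1 and Msgn1, whose TCF/LEF and T-box matches all lie upstream of the annotated transcript. Mesp1, the other gene with matches, is not printed because GENCODE starts it farther upstream, which puts its TCF/LEF matches inside the annotated gene. Its T-box match lies upstream of that start. RefSeq (GRCm38.p6) held a window for 8 of the 10 genes, Mixl1 and Foxc2 being the others, and each was searched on both strands over the 250 bases before the RefSeq start. The motifs were picked from background knowledge after the windows had been seen. They were the TCF/LEF motif of Wnt signalling, with the letters CTTTGAA or CTTTGAT or CTTTGTA or CTTTGTT, the T-box core AGGTGT, and the AP-1 motif TGANTCA bound by JUN dimers. No match overlapped another. The T window is chr17:8434173-8434422 (plus strand), that of Evx1 chr6:52313248-52313497 (plus strand), and that of Msgn1 chr12:11208973-11209198 (minus strand), from which 24 bases that lie inside the GENCODE gene were left out. In the sequences, 5′ to 3′ on the strand of the gene, capitals mark TCF/LEF and T-box matches.
T: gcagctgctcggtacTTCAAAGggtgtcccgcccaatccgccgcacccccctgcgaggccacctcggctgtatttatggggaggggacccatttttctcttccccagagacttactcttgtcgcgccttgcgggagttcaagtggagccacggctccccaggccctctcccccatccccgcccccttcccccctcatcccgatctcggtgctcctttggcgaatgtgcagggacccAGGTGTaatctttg
Evx1: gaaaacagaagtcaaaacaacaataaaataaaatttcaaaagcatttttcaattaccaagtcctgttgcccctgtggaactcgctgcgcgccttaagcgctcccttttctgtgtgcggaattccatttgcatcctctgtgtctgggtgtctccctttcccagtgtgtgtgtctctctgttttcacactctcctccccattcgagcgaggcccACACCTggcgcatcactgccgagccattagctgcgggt
Msgn1: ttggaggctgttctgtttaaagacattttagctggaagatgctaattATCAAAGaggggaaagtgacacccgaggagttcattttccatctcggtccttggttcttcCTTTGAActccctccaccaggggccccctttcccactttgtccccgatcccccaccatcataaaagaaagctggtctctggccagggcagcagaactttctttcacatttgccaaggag

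A TCF/LEF match was found in 3 of the 8 windows, and in 14.8% of all 32851 windows of this length. T had 1 such match, 235 to 229 bases before its start, Msgn1 had 2, at 203 to 197 and 143 to 137 bases, and Mesp1 had 2, at 73 to 67 and 31 to 25 bases. A T-box match was found in 3 of the 8 windows as well (11.8% of all windows), namely in T at 14 to 9 bases before the start, in Evx1 at 38 to 33 bases and in Mesp1 at 233 to 228 bases. The AP-1 motif occurred in 0 of the 8 windows and in 6.75% of all windows. Mesp1, whose window held the most matches, was at or near 0 in all 4 libraries.

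T was by far the most abundant of the 10 genes and was lower in both Stk40-/- libraries. T (ENSMUSG00000062327.10; GRCm38 chromosome 17, 8434423 to 8442496, plus strand, 8 exons in its longest transcript) encodes brachyury, the T-box factor that streak cells need to form and release mesoderm. It was at 1025 and 535 TPM in wild-type libraries 1 and 2, and at 355 and 217 TPM in Stk40-/- libraries 1 and 2. The groups did not overlap, but wild-type library 1 stood 1.92-fold above library 2, a wider gap than that between wild-type library 2 and Stk40-/- library 1. Among all genes of the table, T held rank 134 in wild-type library 1, rank 243 in library 2, and ranks 361 and 613 in the Stk40-/- libraries. The wild-type mean, 780 ± 347 TPM (SD, n = 2), was 2.72 times the Stk40-/- mean, 286 ± 97.7 TPM (SD, n = 2). On the log2(TPM + 1) scale used for all differences here, which understates those of low genes, the Stk40-/- mean lay 1.41 below the wild-type mean (log2 difference -1.41, SE 0.40, limma adjusted p = 0.401). Without wild-type library 1 the difference was -0.94.

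Mixl1 and Evx1, both homeobox genes of the streak, had the same order of libraries as T, with wider gaps between the genotypes. Mixl1 (ENSMUSG00000026497.7; chromosome 1, 180693043 to 180697034, minus strand, 2 exons), which acts in mesoderm and endoderm formation, was at 24.7 and 6.77 TPM in wild type against 2.06 and 1.71 TPM in Stk40-/- cells. Both Stk40-/- libraries were low and close together, and wild-type library 1 was 3.64-fold above library 2. The means of Mixl1 were 15.7 ± 12.7 TPM (SD, n = 2) and 1.89 ± 0.250 TPM (SD, n = 2). The log2 difference of Mixl1 was -2.29 (SE 0.62, limma adjusted p = 0.401), and -1.43 without wild-type library 1. Evx1 (ENSMUSG00000005503.8; chromosome 6, 52313498 to 52318378, plus strand, 3 exons) is a factor of the posterior streak. It was at 9.30 and 2.67 TPM in wild type against 0.650 and 0.0558 TPM in Stk40-/- cells, again without overlap. The means of Evx1 were 5.99 ± 4.69 TPM (SD, n = 2) and 0.353 ± 0.420 TPM (SD, n = 2). Its log2 difference was -2.22 (SE 0.64, limma adjusted p = 0.403), and -1.48 without wild-type library 1. With a pseudocount of 0.1 or 0.01 TPM in place of 1 the Evx1 difference was -3.90 or -4.58.

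The start of Evx1, from 52313498 to 52314832, is shared with the antisense RNA gene Evx1os, and the labels do not say whether strand was used. Evx1os was at 4.62 and 0.412 TPM in wild type against 0.0552 and 0.0524 TPM in Stk40-/- cells. It thus stood highest in the same library as Evx1. Unless strand was used, reads from the shared stretch cannot be told apart, so the split of signal between the pair is uncertain.

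Eomes and Gsc, the streak genes linked to its anterior part and to endoderm, did not separate the genotypes. Eomes (ENSMUSG00000032446.14; chromosome 9, 118478212 to 118486132, plus strand, 6 exons), a T-box factor that also marks trophoblast, was at 3.91 and 2.37 TPM in wild type against 2.82 and 2.51 TPM in Stk40-/- cells. Both Stk40-/- values lay between the wild-type values, and the means were 3.14 ± 1.09 TPM (SD, n = 2) and 2.67 ± 0.221 TPM (SD, n = 2). The log2 difference of Eomes was -0.15 (SE 0.32, limma adjusted p = 0.878) and changed sign to 0.12 without wild-type library 1. The antisense gene Gm33460, which overlaps its end, was at 2.78 TPM in Stk40-/- library 1 and at 0 to 0.72 TPM in the others. Gsc (ENSMUSG00000021095.5; chromosome 12, 104471209 to 104473330, minus strand, 3 exons), the homeobox gene of the organizer, was at 0.152 TPM in wild-type library 2, at 0.157 TPM in Stk40-/- library 2, and listed at 0 in both libraries numbered 1.

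**Figure D1:**
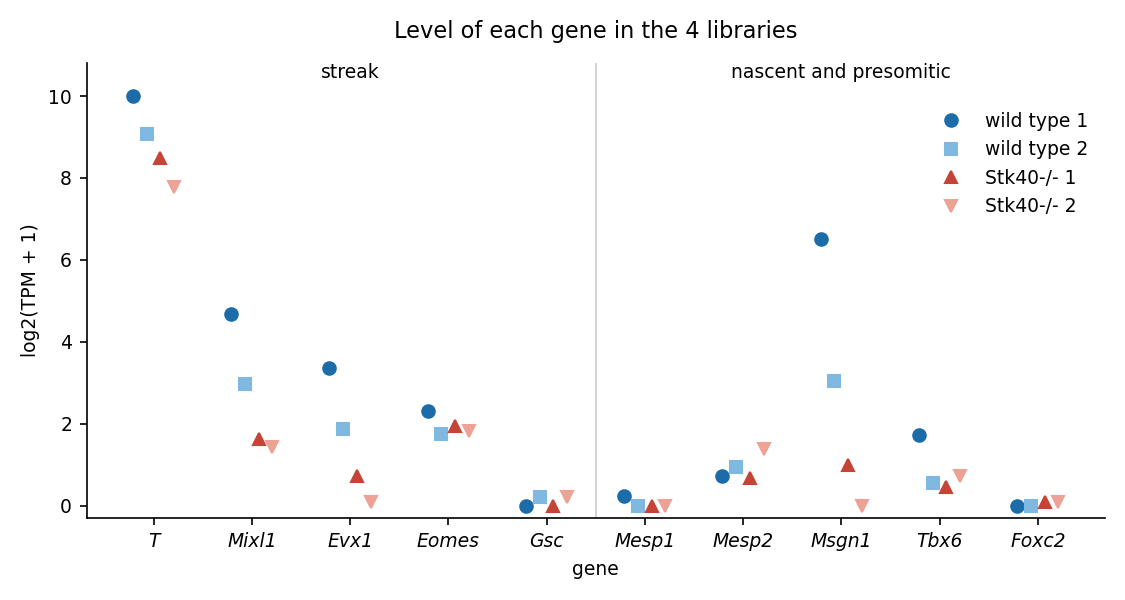
Level of the 10 genes as log2(TPM + 1), with 1 point for each of the 4 libraries (blue, wild type; red, Stk40-/-). T, Mixl1, Evx1 and Msgn1 step down from wild-type library 1 to Stk40-/- library 2, while Gsc, Mesp1 and Foxc2 lie under 1 TPM in every library.

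Msgn1, a factor that drives presomitic cells towards the paraxial fate, had the widest range of the 10 genes on the log2(TPM + 1) scale. Msgn1 (ENSMUSG00000047002.2; chromosome 12, 11208360 to 11208972, minus strand, 1 exon) was at 90.6 TPM in wild-type library 1, at 7.22 TPM in library 2, at 0.975 TPM in Stk40-/- library 1, and listed at 0 in Stk40-/- library 2. The groups did not overlap, and wild-type library 1 stood 12.6-fold above library 2. The means were 48.9 ± 59.0 TPM (SD, n = 2) and 0.487 ± 0.689 TPM (SD, n = 2). The log2 difference was -4.29 (SE 1.25, limma adjusted p = 0.407), and 6 of the 15739 genes tested had a more negative one. Msgn1 passed the filter for testing only through its wild-type values, so this rank is a description and no added support. The log2 difference depended on the pseudocount, being -6.30 with 0.1 TPM and -8.01 with 0.01 TPM, and on wild-type library 1, being -2.55 without it.

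The other nascent and presomitic genes were at the bottom of the measured range. Tbx6 (ENSMUSG00000030699.16; chromosome 7, 126781483 to 126785560, plus strand, 8 exons), the T-box factor that keeps presomitic cells from a neural fate, was at 2.33 and 0.468 TPM in wild type against 0.358 and 0.661 TPM in Stk40-/- cells. Wild-type library 1 was high and the other three lay between 0.358 and 0.661 TPM, so that the log2 difference of -0.56 was 0.03 without that library. Mesp2 (ENSMUSG00000030543.10; chromosome 7, 79810727 to 79813439, plus strand, 2 exons), which sets the next somite boundary, was at 0.637 and 0.932 TPM in wild type against 0.602 and 1.61 TPM in Stk40-/- cells. These groups overlapped (log2 difference 0.20, and -0.15 without Stk40-/- library 2). Both genes had a mean under 1 TPM over the 4 libraries and were not tested.

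Mesp1 and Foxc2 were near or at 0. Mesp1 (ENSMUSG00000030544.5; chromosome 7, 79792241 to 79793788, minus strand, 2 exons), which marks the earliest cardiac and cranial mesoderm, lies 16938 bases from its paralog Mesp2 and points away from it. It was at 0.177 TPM in wild-type library 1 and listed at 0 in the other libraries. Foxc2 (ENSMUSG00000046714.7; chromosome 8, 121116171 to 121118895, plus strand, 1 exon), a factor of paraxial mesoderm and somites, was listed at 0 in both wild-type libraries and was at 0.0683 and 0.0648 TPM in Stk40-/- cells. All of Foxc2 lies inside the overlapping gene model Gm20388 on the same strand, which was at 6.78, 3.81, 18.0 and 2.52 TPM in wild-type libraries 1 and 2 and Stk40-/- libraries 1 and 2, so its few reads are of uncertain origin. TPM keeps no sequencing depth, so how precise these low values are is unknown.

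Across the 10 genes, 4 (T, Mixl1, Evx1 and Msgn1) were lower in both Stk40-/- libraries than in both wild-type libraries. All 10 had a mean above 0 TPM, and over the 27561 genes with such a mean this held for 14.6%. Over the 15739 genes that passed the filter (a mean of 1 TPM or more) it held for 16.6%. All 4 were among the 5 members that passed this filter. The same 4 had the full order wild-type library 1, wild-type library 2, Stk40-/- library 1, Stk40-/- library 2 from high to low, which 5.04% of the tested genes had. That order was not among the planned comparisons, so its share is a description and no added support. A limma fit over all tested genes, with Benjamini-Hochberg adjustment, called 0 of the 5 members that passed the filter and 0% of all genes at an adjusted p under 0.05, while 1730 genes had an unadjusted p under 0.05. Evx1 and Msgn1 passed the filter only through their wild-type values, so their place among the 5 is not evidence of a difference. With 2 libraries against 2, an exact permutation test of one gene cannot give a two-sided p under 0.33. The median log2 difference of all tested genes was 0.065, and 41.4% of them were negative.

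The genes that separated the genotypes also separated the wild-type libraries. On the log2(TPM + 1) scale, wild-type library 1 exceeded library 2 by 0.94 for T, 1.72 for Mixl1, 1.49 for Evx1 and 3.48 for Msgn1, against a median size of 0.224 over all tested genes. The T difference was larger in size than that of 88.3% of tested genes, the Mixl1 difference than 94.5%, the Evx1 difference than 93.3%, and 143 genes exceeded Msgn1. Between Stk40-/- libraries 1 and 2 the differences were 0.71 for T, 0.18 for Mixl1, 0.64 for Evx1 and 0.98 for Msgn1, against a median size of 0.196. In both genotypes the library numbered 1 was thus the higher one for these 4 genes. For Mixl1, Evx1 and T the genotype difference was larger than either replicate difference, and so was that of Msgn1 (-4.29 against 3.48).

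**Figure D2:**
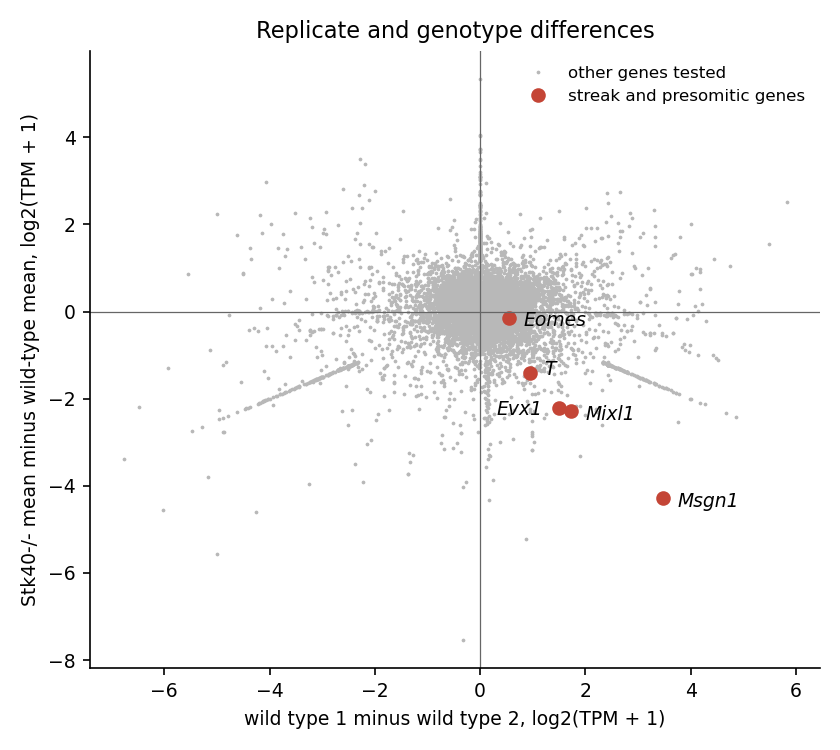
Difference between the wild-type libraries (horizontal) against the difference of the genotype means (vertical), both in log2(TPM + 1), for the 15739 tested genes; red points are the 5 tested streak and presomitic genes. T, Mixl1, Evx1 and Msgn1 lie to the lower right, higher in wild-type library 1 than in 2 and lower in Stk40-/- cells, and the straight lines of grey points are genes listed at 0 in all libraries but 1.

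Relative to T itself, Msgn1, Evx1 and Mixl1 were also lower in both Stk40-/- libraries than in both wild-type libraries. Since TPM is scaled per length, levels were compared between genes as TPM per 100 TPM of T. The share of all genes that separate in this way on this scale was not computed. In Stk40-/- cells Evx1 averaged 0.353 TPM and Msgn1 0.487 TPM, so their ratios there rest on values near 0. Msgn1 was at 8.84 and 1.35 per 100 of T in wild-type libraries 1 and 2, at 0.274 in Stk40-/- library 1 and at 0 in library 2. Evx1 was at 0.907, 0.500, 0.183 and 0.0257 in the same order, and Mixl1 at 2.41, 1.27, 0.581 and 0.787. Eomes per 100 of T went the other way, from 0.382 and 0.444 in wild type to 0.794 and 1.16 in Stk40-/- cells. The TPM of Eomes itself overlapped between the genotypes, so this ratio rose as its divisor, T, fell. T alone made up 88.6% of the summed level of the 10 genes in wild-type library 1 and 96.3%, 97.9% and 97.0% in the other libraries. The other members together summed to 132 and 20.6 TPM in wild type and to 7.54 and 6.77 TPM in Stk40-/- cells.

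**Figure D3:**
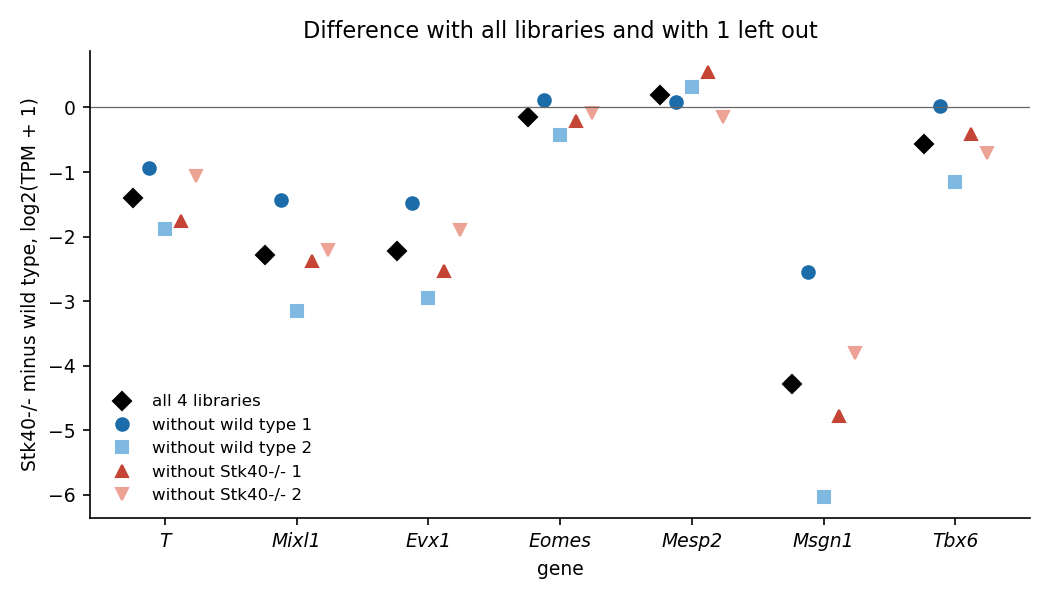
Stk40-/- minus wild-type difference in log2(TPM + 1) with all 4 libraries (black) and with each library left out in turn (coloured), for the 7 genes whose difference is given. T, Mixl1, Evx1 and Msgn1 stay below 0 in each case, with values nearest to 0 for wild-type library 1 left out, while Eomes, Mesp2 and Tbx6 cross 0.

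Genes tied to T and Tbx6 in the streak and presomitic mesoderm were mostly lower in Stk40-/- cells too. The 20 genes of this list, like the members, were chosen with earlier results of these data known. Of them 13 were lower in both Stk40-/- libraries than in both wild-type libraries. The filter was passed by 15, of which 2 passed only through wild type, and limma called 0. Of these 15, 12 were lower in both Stk40-/- libraries, which held for 16.6% of all tested genes. Fgf8 and Wnt3a are also on the list of upstream signals given below. Among the 15 the median log2 difference was -0.80, 14 were negative and 1 positive. Wild-type library 1 was above library 2 in 14 of the 15, with a median log2 difference of 0.53, against 0.021 over all tested genes.

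The 3 most abundant of these genes had smaller steps than Mixl1 or Msgn1. Epha1, an ephrin receptor gene of the streak, was at 119 and 78.1 TPM in wild type against 75.9 and 53.3 TPM in Stk40-/- cells. Lefty2, a Nodal antagonist of nascent mesoderm, was at 101 and 87.0 against 57.3 and 61.5 TPM. Fst, which binds activin, was at 120 and 82.3 against 40.3 and 35.9 TPM. In each of these 3 genes the groups did not overlap, and the limma adjusted p was 0.516 for Epha1, 0.290 for Lefty2 and 0.265 for Fst. A further 4 genes were chosen after their values were seen. Aplnr, the apelin receptor gene of migrating mesoderm, was at 20.3 and 5.26 against 1.88 and 0.753 TPM, and Rspo3, a secreted enhancer of Wnt signalling, at 11.35 and 3.24 against 1.01 and 0.988 TPM. Both had the steep wild-type step of Mixl1. Wnt3a, the Wnt ligand of the streak and tail bud, was at 1.11 and 0.599 against a listed 0 and 0.0559 TPM. Lfng, which modifies Notch in the somite clock, was the 1 positive gene, at 2.88 and 3.22 against 5.72 and 5.09 TPM.

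**Figure D4:**
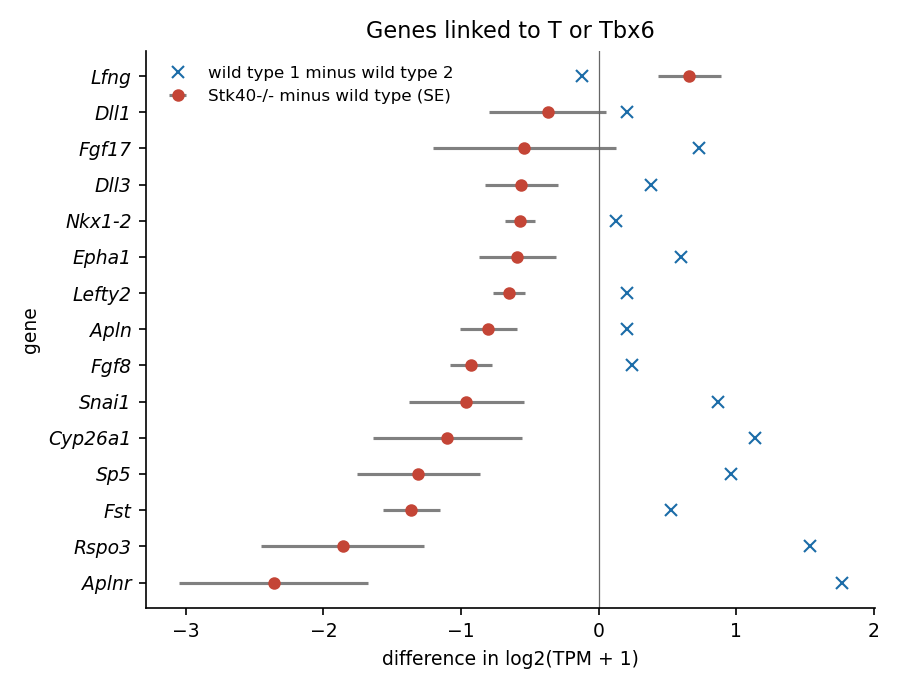
Stk40-/- minus wild-type difference with its SE from limma (red) and difference between the wild-type libraries (blue crosses), both in log2(TPM + 1), for the 15 tested genes linked to T or Tbx6. All but Lfng lie below 0 for the genotype and above 0 for the replicates, with Aplnr and Rspo3 the farthest on both sides.

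Signals and transducers upstream of the streak included genes on either side. Of 21 genes 20 were tested, limma called 0, and the median log2 difference was -0.02. In 6 of the 20 both Stk40-/- libraries were below both wild-type libraries, and in 7 above, against 16.6% below and 27.5% above over all tested genes. Ctnnb1, the gene for beta-catenin, was at 482 and 512 TPM in wild type against 474 and 468 TPM in Stk40-/- cells. Tdgf1, a Nodal co-receptor, was at 257 and 201 against 249 and 185 TPM, and the Wnt ligand gene Wnt8a at 211 and 212 against 203 and 215 TPM. The latter pair overlapped between genotypes, and Wnt8a was level between the wild-type libraries in which T differed 1.92-fold. Of the genes without overlap, chosen after their values were seen, the ligand gene Fgf8 was at 97.8 and 82.6 TPM in wild type against 51.8 and 42.2 TPM (log2 difference -0.93, SE 0.15, limma adjusted p = 0.279, the lowest of the list). The others below wild type were Wnt3 (14.4 and 14.6 TPM against 11.5 and 9.80 TPM), Nodal (56.5 and 61.6 TPM against 48.1 and 52.7 TPM), Wnt5b, Lef1 and Ctnnb1. Those above were Fgf4, Gdf3, Smad3, Smad5, Foxh1, Tcf7l1 and Tcf7l2.

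Within the T-box family, T stood alone in level. Of 17 family genes, 12 were under 1 TPM in every library and 4 passed the filter. After T, the most abundant was Mga, a T-box gene that also binds MAX, at 39.1 and 14.6 TPM in wild type against 50.9 and 40.8 TPM in Stk40-/- cells (log2 difference 0.90, SE 0.49, limma adjusted p = 0.568). Mga and Eomes were the members of the family after T in mean level, and neither had the order of libraries seen for T.

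Factors of the stages that follow were mostly under 1 TPM. Of 14 somite factors 11 were under 1 TPM in every library, and limma called 0 of the 3 tested. Tcf15, a helix-loop-helix factor of the somite that is also found in epiblast, was at 24.1 and 16.5 TPM in wild type against 20.99 and 11.9 TPM in Stk40-/- cells. Ripply1, a repressor that ends Mesp2 activity, was at 1.46 and 0.517 against 1.12 and 1.29 TPM. Of 11 lateral plate and cardiac factors 7 were under 1 TPM in every library, and limma called 0 of the 3 tested. Isl1, a cardiac progenitor factor, was at 6.97 and 2.04 against 1.77 and 0.489 TPM, which again put wild-type library 1 far above the rest. Hand1 was at 3.11 and 2.27 against 1.51 and 2.48 TPM and Gata4 at 0.656 and 3.77 against 1.30 and 3.88 TPM, both with overlapping groups.

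The genes most like T across the 4 libraries were sought among 10896 other genes averaging 5 TPM or more, by the summed absolute difference of log2(TPM + 1) values centred on each gene's mean. The measure rests on 4 libraries and carries no test. The nearest was Sp5, a zinc finger factor switched on by Wnt signalling, at 67.7, 34.4, 25.7 and 13.9 TPM in wild-type libraries 1 and 2 and Stk40-/- libraries 1 and 2 (distance 0.24). Wnt5b, a non-canonical Wnt ligand of the streak, followed at 34.3, 15.3, 10.9 and 7.29 TPM (distance 0.37), and then Lgals3, which encodes galectin-3, at 103, 41.6, 31.7 and 18.5 TPM (distance 0.39). Acnat1, an acyltransferase gene, and Gbp3, a guanylate-binding protein gene, were next (both distance 0.45). Of the other members above 5 TPM, Mixl1 had 247 genes nearer to T than itself (distance 1.77), and Msgn1 had 10723 (distance 5.75). Both shared the order of libraries seen for T. The distance is not scaled for the size of a gene's steps, so the larger steps of Msgn1 place it far from T despite that order.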

How the data were processed

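RNA sequencing values from 4 libraries, 2 wild-type and 2 Stk40-/-, were used, with groups and replicate numbers taken from the titles. Values are TPM as the authors deposited them, named so per the file headers, with columns that sum to 1000000. Salmon 0.8.2 and CASAVA 1.7 are named per the submitters' processing notes, as is the human build hg38, although the gene IDs are mouse, so which annotation was used is unclear from the labels. The labels' protocols name 2 read lengths and instruments without saying which library had which, so no batch term could be fitted. Gene positions are from GENCODE vM21 (GRCm38) and promoters from RefSeq (GRCm38.p6).

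The 15739 genes averaging 1 TPM or more entered a limma fit (version 3.58.1, R 4.3.3) of log2(TPM + 1), with an intensity trend, no replicate block and Benjamini-Hochberg adjustment over all of them at 0.05. The procedure was tested on simulated data with normal noise. The simulated spread was averaged over genes of similar level. It therefore does not show how the fit treats genes with an unusually wide replicate spread, such as Msgn1. Members and lists were chosen with earlier results of these data known. All members were named, and of each list of pathway genes the 3 tested genes highest in mean TPM, with marker lists given as sums; 1 such gene is not reported here. Alternatives were pseudocounts of 0.1 and 0.01, filters at means above 0 and of at least 5 TPM, 2 other scalings, a replicate block, no trend, and each library left out. There were 0 per-sample columns left unused.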

Additional observations from a re-analysis of the deposited data

How the results depend on the processing

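With 2 libraries a group, 1 library carries much weight, and TPM keeps no depth, so counting error is unknown. The genes called over the whole table numbered 0 higher and 0 lower in every alternative run. T, Mixl1, Evx1 and Msgn1 kept their negative sign and passed the threshold in 0 of the alternatives (Evx1 was not tested under the filter at 5 TPM). With 1 library left out, T ran from -1.88 to -0.94, Mixl1 from -3.16 to -1.43, Evx1 from -2.96 to -1.48 and Msgn1 from -6.03 to -2.55. Eomes ran from -0.42 to 0.12 and reversed to 0.12 without wild-type library 1, since both Stk40-/- values lie above that of wild-type library 2. Eomes, too, was not tested under the filter at 5 TPM. The count of members lower in both Stk40-/- libraries, 4, ran from 4 to 7 with 1 library left out. The share over all tested genes, 16.6%, rose in each of these runs. Without wild-type library 1 the count was 4 (share 28.4%), and without Stk40-/- library 1 it was 4 (28.8%). Without Stk40-/- library 2 it was 6 (26.7%), and without wild-type library 2 it was 7 (32%). Median-of-ratios scaling gave T -1.48. With the replicate number as a block, T kept its difference of -1.41 with SE 0.082 (limma adjusted p = 0.262), Msgn1 -4.29 with adjusted p = 0.292 and Mixl1 -2.29 with adjusted p = 0.309. Over all alternatives the limma adjusted p ran from 0.262 to 0.747 for T, from 0.309 to 0.747 for Mixl1 and Evx1, from 0.292 to 0.747 for Msgn1 and from 0.573 to 0.937 for Eomes. The replicate block called 0 genes, and the numbers are not stated to pair the libraries (same-numbered libraries deviated together with Pearson r = 0.089 and Spearman rho = 0.182 across 15739 genes, which are not independent).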

Other observations

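Several lineage factors had a high and a low library within both genotypes, on the side opposite to T. Tbx3, a T-box factor of extraembryonic and naive cells, was at 0.623 and 5.55 TPM in wild-type libraries 1 and 2 and at 0.724 and 2.42 TPM in Stk40-/- libraries 1 and 2. Gata4, a factor of endoderm and heart, was at 0.656 and 3.77 TPM and at 1.30 and 3.88 TPM in the same order, and Sox2, a factor of pluripotent and neural cells, at 12.7 and 24.4 TPM and at 20.3 and 32.6 TPM. In these 3 genes the library numbered 2 was the higher one in each genotype, whereas it was the lower one for T, Mixl1, Evx1 and Msgn1. The genes were chosen after their values were seen, and no test was made.

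Bmp4, the gene for the ligand also added to the medium, was at 5.49 and 1.41 TPM in wild type against 1.81 and 0.648 TPM without Stk40, the high value being that of wild-type library 1, and the groups overlapped. Fgf4, a growth factor gene of pluripotent cells and the streak, was at 3.13 and 5.91 TPM in wild type against 13.4 and 9.78 TPM without Stk40, without overlap (log2 difference 1.22, SE 0.34, limma adjusted p = 0.401).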
